A study of Sus scrofa with 22 samples.

Results

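Cytosolic ribosomal protein genes encode the proteins of the small and large ribosomal subunits. They were taken as every gene whose symbol has the form RPL or RPS with a number (with or without A, X, L or L1 after it), together with the stalk genes RPLP0 to RPLP2 and RPSA. This gave 82 genes of 27376 in the annotation of 16 libraries and of 29850 named genes in that of the other 6 libraries. The choice used names only, not levels. By name, 42 were large subunit genes, 31 small subunit genes, 3 stalk genes and 6 paralogs (RPL22L1, RPS27L, RPL3L, RPL10L, RPL7L1 and RPL26L1), that is, relatives of a core gene with an L or L1 in the name.

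The RNA came from pig foliate papillae, ridges on the edge of the tongue where taste buds sit, and from organoids grown from papilla cells. Passage 1 organoids of 5 pigs were set against papillae of the same 5 pigs. Organoids in the growth medium LPM without FGF10 (3 libraries) were set against organoids in LPM (3 libraries), which held FGF10, a fibroblast growth factor, at 100 ng/ml. LPM, in which passage 1 organoids were also grown, further held insulin, Wnt3a, SHH, noggin, R-spondin 2, EGF, forskolin, CHIR99021, Y-27632, A-83-01, SB202190, prostaglandin E2, N-Acetyl-Cysteine and nicotinamide. FGF2, another fibroblast growth factor, was in both arms at 10 ng/ml. Organoids finished in the medium CQ from day 10 to day 16 or 17 (3 libraries) were set against 3 libraries in LPM. What CQ contained, and the culture day of those LPM libraries, are not given in the sources used here, so culture age and medium cannot be told apart. Papilla RNA was extracted with another kit than organoid RNA, so extraction and the contrast of tissue with organoids cannot be told apart either.

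A ribosome needs about equal numbers of most of its proteins, and the genes for them are known to be expressed together. In mammals their mRNAs start with a run of pyrimidines, the terminal oligopyrimidine or TOP motif, through which the growth signal of mTOR controls their translation. Growing epithelial cells make many ribosomes, and ribosomal protein mRNAs are among the most abundant mRNAs of such cells. RNA-seq measures mRNA and shows neither that translation nor the amount of ribosomes.

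Libraries held 14.67 to 27.77 M counts, with 14.67 to 16.0 M in CQ as the lowest group. Summed over the markers of each cell type, gland genes stood at 0.287 to 1.36 CPM (counts scaled to library size) in passage 1 organoids and 37600 to 182000 CPM in papillae, and 4 of 4 were called lower. Skeletal muscle genes (7 of 7 called lower) summed to 0.273 to 0.46 CPM in passage 1 organoids, with MYH2 and DES at 0, and to 279 to 8290 CPM in papillae. Fibroblast genes (5 of 5 lower) summed to 0.123 to 1.48 CPM in passage 1 organoids and 1840 to 6880 CPM in papillae. Nerve markers (4 of 4 lower) summed to 0.451 to 1.5 CPM in passage 1 organoids and 231 to 338 CPM in papillae, and endothelial markers (3 of 4 lower) to 21 to 114 CPM in passage 1 organoids and 303 to 482 CPM in papillae. Immune markers (2 of 5 lower, 1 higher) summed to 24.4 to 97.4 CPM in passage 1 organoids, with PTPRC and CD3E at 0, and 37.4 to 70.4 CPM in papillae. Basal epithelial markers (2 of 3 lower, 1 higher) summed to 1600 to 2940 CPM in passage 1 organoids and 6640 to 9800 CPM in papillae. The part of these tissues in the results was not tested.

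The 7 taste markers summed to 1140 to 3120 CPM in passage 1 organoids and 458 to 664 CPM in papillae, and 4 of them were called lower and 1 higher. In bulk RNA, fewer cells of a type and less RNA per cell cannot be told apart.

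The 82 genes together took a share of all counts that differed most between organoids and papillae. Passage 1 organoids gave them 8.55, 7.3, 8.46, 6.69 and 8.27% of counts, and papillae 3.16, 3.94, 3.49, 3.24 and 3.27%. Every organoid library lay above every papilla library. In the FGF10 experiment the share was 5.74, 5.87 and 5.72% without FGF10, and 5.73, 6.06 and 5.85% in LPM. CQ libraries held 12.2, 11.3 and 11.4%, and the LPM libraries beside them 10.8, 11.8 and 14.3%. Both media contrasts overlapped, and LPM replicate 3 of the CQ experiment had the highest share of the 22 libraries.

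**Figure D1:**
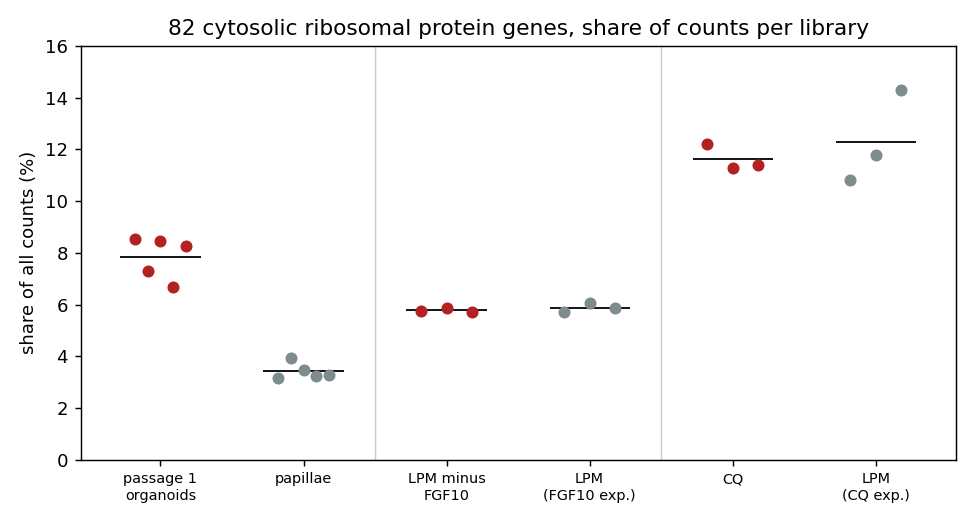
Share of all counts per library (%, vertical axis) taken by the 82 ribosomal protein genes in 6 groups; each point is a library and the line is the group mean. Passage 1 organoids lie at 6.69 to 8.55% and papillae at 3.16 to 3.94%, while both media pairs overlap.

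Papilla libraries gave 16.0 to 36.5% of counts to their 10 most abundant genes, against 5.37 to 6.55% in passage 1 organoids, and a large share of a few genes lowers that of the rest. With the 10 most abundant genes of each library taken out, the ribosomal protein share was 7.07 to 9.06% in passage 1 organoids and 4.32 to 5.14% in papillae, and the groups still did not overlap. Among the 100 most abundant genes there were 28 to 35 ribosomal protein genes in passage 1 organoids and 7 to 14 in papillae. The corresponding numbers were 20 to 22 without FGF10 and 21 to 23 in LPM. They were 46 to 47 in CQ and 39 to 47 in the LPM libraries beside it.

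On 1 scale for all 22 libraries, the median ribosomal protein gene stood at 851 ± 115 CPM in passage 1 organoids and 460 ± 32.3 CPM in papillae (SD, n = 5 each). It stood at 642 ± 26.6 CPM without FGF10 and 656 ± 36.5 CPM in LPM, and at 1150 ± 52 CPM in CQ and 1520 ± 346 CPM in the LPM libraries of that experiment (SD, n = 3 each). The range of 614 to 667 CPM without FGF10 overlapped that of 617 to 689 CPM in LPM, and no other neighbouring groups in this order overlapped. Scaled within the CQ experiment alone, however, CQ and LPM did overlap. There the median member lay at log2 0.07, -0.1 and -0.09 in CQ and -0.22, -0.08 and 0.28 in LPM, against the LPM mean. The experiments were run and annotated apart, so levels across them are a description only, and the 2 LPM groups differed in the median gene although both carry the same medium name.

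Per kilobase of counted length, which allows levels of different genes to be compared, members spread widely. The median member stood at 1070 CPM per kilobase in passage 1 organoids and 544 in papillae. RPS15 and RPLP0 were the highest over the mean of the 6 groups, at 3280 and 2980 CPM per kilobase. RPS15 is a small subunit protein, and RPLP0 is the base of the stalk that recruits elongation factors. RPLP0 led in passage 1 organoids at 3190 CPM per kilobase, whereas RPS15 led in papillae at 1670.

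RPL18 cannot be followed across the experiments. In the annotation of the first 16 libraries this symbol named a place on chromosome 1 (84378453 to 84379052, coordinates of the deposited files) that had 0 counts in all 16, while an entry named RPL18_1, outside the naming rule, carried 121294 counts in passage 1 organoids and 43224 in papillae. RPL18_1 was 1.88-fold higher in organoids (log2 0.91, SE 0.16, adjusted p = 0.000364 by edgeR). In the annotation of the CQ experiment RPL18 lies on 2 sequences and has no RPL18_1 beside it, with 57978 counts in CQ and 88591 in LPM. Whether the added place is that of RPL18_1 was not tested. RPL10L, known in humans as a testis paralog of RPL10, had too few counts to be tested in any comparison.

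Counting also limits 12 members that share counted bases with another gene, since a read pair was counted for each gene it overlapped and strand was ignored. KLB was given 79.0% as many counts as RPL9 in passage 1 organoids and 81.1% in papillae, and ACY1 43.1% and 44.4% as many as RPL29. For RPS18 and its neighbour VPS52 the share was 39.5% in passage 1 organoids and 56.1% in papillae. Which gene the shared pairs belong to was not tested.

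Passage 1 organoids held higher levels of almost every ribosomal protein mRNA than papillae. Of 80 members that passed the filter on low counts, 77 were called higher at an adjusted p under 0.05 (edgeR quasi-likelihood F test, adjusted over all genes tested) and 1, the muscle paralog RPL3L, was called lower. That is 96.2% of the tested members called higher, where 32.4% of all 16311 tested genes were, and 1.25% called lower against 35.1% of all genes. The median fold change of members was 0.90 on the log2 scale (1.86-fold), against -0.01 over all genes. With the pig as a block, 74 were called higher and 1 lower.

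The 41 large subunit genes tested were all called higher, with a median of 0.97, and so were all 31 small subunit genes, with a median of 0.81, and all 3 stalk genes, with a median of 0.77 (log2 fold changes). The middle of the distribution was narrow, with quartiles of 0.73 and 1.05. In 68 members every organoid library lay above every papilla library, 85.0% of those tested against 24.5% of all genes, and in 1 member, RPL3L, every organoid library lay below, against 29.6% of all genes (54.1% in either direction). The shift was not the same in every organoid library. Against the papilla mean, the median member stood at log2 1.03, 0.74, 1.08, 0.52 and 0.99 in the organoids of pigs 1 to 5. The organoids of pig 4 stood lowest. On that scale the papillae of pigs 1 to 5 stood at -0.04, 0, -0.01, -0.08 and 0.16. The rise over the papilla of the same pig is not given here.

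**Figure D2:**
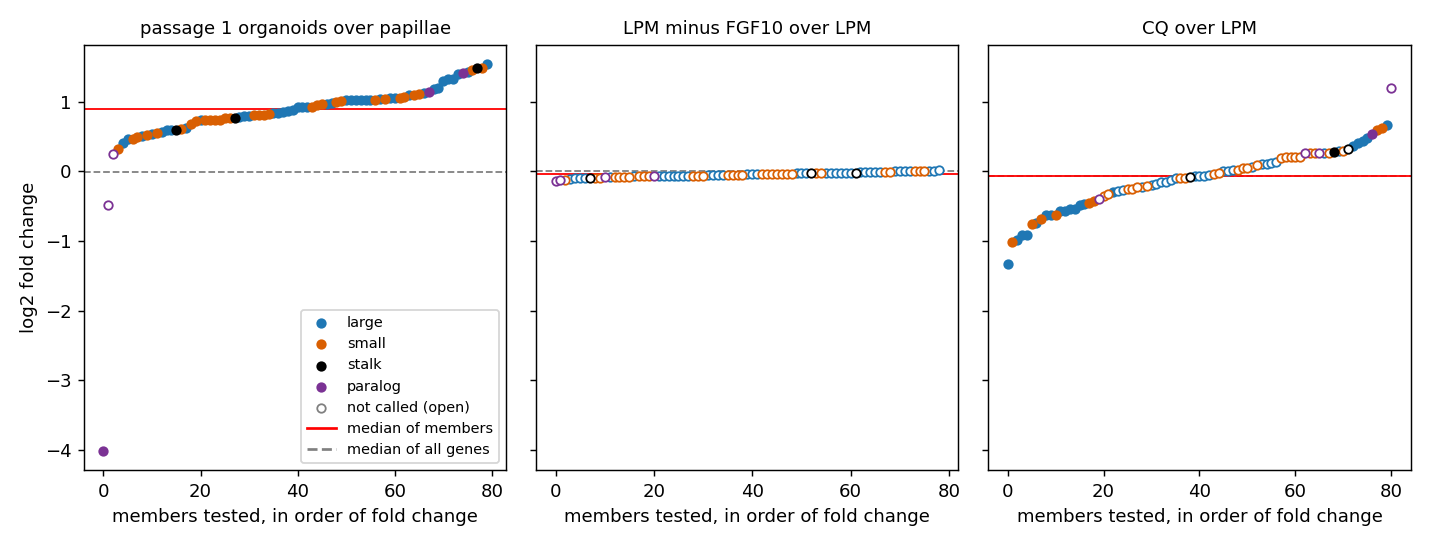
Log2 fold change (vertical axis) of each ribosomal protein gene tested in 3 comparisons, in order of size; colours give the class, filled points were called at an adjusted p under 0.05, the red line is the median of the members and the dashed line that of all genes. The members' median is 0.90 in organoids over papillae, -0.04 without FGF10 and -0.06 in CQ, and the lowest point in the first panel is RPL3L at -4.01.

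The members named in this paragraph were called higher, like almost every other member tested. RPL5 and RPL11, which bind 5S ribosomal RNA and can inhibit MDM2, rose 2.65-fold (log2 1.40, SE 0.17, adjusted p = 2.78e-05) and 1.72-fold (log2 0.78, SE 0.16, adjusted p = 0.000997 by edgeR). RPS6, the subunit protein phosphorylated by S6 kinases, averaged 1190 ± 167 CPM in organoids and 621 ± 41.5 CPM in papillae (SD, n = 5 each) and was called higher. RPSA, also known as a laminin receptor, averaged 1160 ± 123 CPM in organoids and 594 ± 69.5 CPM in papillae. The X-linked RPS4X averaged 1410 ± 101 CPM in organoids and 685 ± 68.5 CPM in papillae, and both were called higher. RPL36A, a large subunit protein, stood at 242 ± 45.3 CPM in organoids and 127 ± 8.23 CPM in papillae.

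To ask which members left the common shift, every library was rescaled to its median ribosomal protein gene and the test repeated, so that a log2 value of 0 means moving with the median member. In this scaling 12 members were called above the shift and 14 below it, 15% and 17.5% of those tested. Over all genes the same scaling called 7.11% above and 61.4% below, because it centres on genes that had themselves risen. Of the 80 members, 69 stayed within 0.5 log2 of the shift.

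The 12 above it were 8 large subunit genes (RPL5, RPL9, RPL14, RPL17, RPL23, RPL32, RPL35A and RPL39), RPS16, RPS19, RPLP0 and RPS27L. RPL35A, a large subunit protein, stood at 778, 526, 753, 460 and 911 CPM in organoids and at 213, 244, 227, 223 and 276 CPM in papillae. RPS16, a small subunit protein, stood at 1170, 928, 1100, 877 and 1410 CPM in organoids and 345, 392, 399, 384 and 441 CPM in papillae. In both genes the lowest organoid library, pig 4, was still above the highest papilla.

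RPL35A was 2.90-fold higher (log2 1.54, SE 0.20, adjusted p = 3.65e-05), which is 0.64 above the common shift (SE 0.14, adjusted p = 0.00178 by edgeR). RPS16 was 2.80-fold higher and 0.60 above the shift (SE 0.13, adjusted p = 0.00177 by edgeR). RPLP0 stood at 3590, 3050, 3830, 2290 and 3380 CPM in organoids and 1130, 1230, 1100, 1100 and 1240 CPM in papillae, 0.58 above the shift. The other stalk proteins did not leave it: RPLP1 departed by -0.12 (adjusted p = 0.434 by edgeR) and RPLP2 by -0.27 (adjusted p = 0.107 by edgeR), so the departure within the stalk was called for RPLP0 only, and a test of the difference between the 3 genes was not run.

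RPS19 and RPL17 departed by 0.55 and 0.53; RPS19, a small subunit protein, is the gene most often mutated in Diamond-Blackfan anaemia in humans. RPS27L, a paralog known in humans as a p53 target, stood at 53.5, 64.1, 56.2, 63.5 and 65.3 CPM in organoids and 22.1, 15.6, 22.2, 21.1 and 33.1 CPM in papillae, 0.57 above the shift (SE 0.19, adjusted p = 0.0206 by edgeR). Unlike most members, its organoid libraries differed little from each other. Without the organoids of pig 2 the adjusted p of this departure was 0.0506.

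The 14 below the shift were 7 large subunit genes (RPL3, RPL19, RPL21, RPL28, RPL29 and RPL37 among them), 4 small subunit genes (RPS9, RPS12 and RPS13 among them) and the paralogs RPL3L, RPL22L1 and RPL7L1. RPS9, a small subunit protein, stood at 627, 600, 642, 608 and 572 CPM in organoids and 490, 502, 524, 443 and 490 CPM in papillae. The groups did not overlap, yet the rise was only 1.24-fold (log2 0.32, SE 0.11), which is -0.55 from the shift (SE 0.14, adjusted p = 0.00465 by edgeR). RPL3, which lines the peptidyl transferase centre, averaged 1020 ± 52.4 CPM in organoids and 738 ± 89.5 CPM in papillae, -0.39 from the shift (SE 0.16, adjusted p = 0.0462 by edgeR). This departure missed the threshold when pigs were blocked (adjusted p = 0.0636), with no filter (adjusted p = 0.065) and without any single library but organoid 4 or papilla 3 (adjusted p = 0.0586 to 0.109). RPL29 departed by -0.48.

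This lower group is the less stable of both. With the pig as a block 9 members were called below and 10 above. The number below was 6 without the organoids of pig 1, 9 without those of pig 3 or of pig 5, 9 without papilla 1 and 7 without papilla 2, 3 or 4, and the rises of RPS9 and RPL29 themselves missed the threshold with the block (adjusted p = 0.0633 and 0.0862 by edgeR).

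Of the 5 paralogs tested, 3 were called below the shift, RPS27L was called above it and RPL26L1 did not leave it. RPL3L, known as the form of RPL3 made in skeletal muscle and heart, stood at 0.692, 0.328, 0.968, 0.579 and 0.493 CPM in organoids and 4.08, 2.31, 27.8, 7.38 and 7.91 CPM in papillae. It was 16.1-fold lower in organoids (log2 -4.01, SE 0.66, adjusted p = 0.00025 by edgeR), with 79 counts in the 5 organoid libraries together. Without papilla 3 it was 8.75-fold lower (log2 -3.13, adjusted p = 0.000152 by edgeR). The summed CPM of the 7 muscle markers was 1060, 288, 7890, 1850 and 2320 in papillae 1 to 5 and 0.326 to 0.504 in the organoids. The papilla with the most muscle signal also had the most RPL3L and the one with the least had the least; the part of muscle in this result was not tested.

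RPL22L1, the paralog of RPL22, stood at 35.6, 59.4, 41.3, 119 and 42.5 CPM in organoids and 72.7, 91.5, 87.8, 80 and 88.1 CPM in papillae. Organoids of 4 pigs lay below all papillae and those of pig 4 above them all. The difference was not called (log2 -0.49, SE 0.30, adjusted p = 0.158), but without the organoids of pig 4 it was (log2 -0.90, adjusted p = 0.000371 by edgeR). RPL7L1, which acts in ribosome assembly, averaged 54.3 ± 7.46 CPM in organoids and 45.8 ± 3.04 CPM in papillae and was not called (adjusted p = 0.0692 by edgeR). RPL26L1 rose 2.20-fold (log2 1.14, SE 0.12, adjusted p = 7.57e-06 by edgeR), the smallest adjusted p of any member, and its departure from the shift, 0.28, was not called (adjusted p = 0.108 by edgeR).

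Genes that work with the ribosome were read against the same shares of all genes, 32.4% called higher and 35.1% lower. Of 23 other genes with a TOP start or a ribosome-fused product, 20 were called higher (87%) and 0 lower, with a median log2 change of 1.09; EEF1B2, an exchange factor of elongation, averaged 650 ± 102 CPM in organoids and 230 ± 16.3 CPM in papillae. Of 29 initiation and elongation factors not on that TOP list, 23 were higher (79.3%) and 0 lower, with a median of 0.62. Both medians lie beside -0.01 over all genes. No start was checked in pig sequence, so these lists cannot tell genes with a TOP start from genes without one.

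Of 50 ribosome assembly genes 22 were higher and 4 lower (44% and 8%), with a median of 0.34. POLR1B, a subunit of RNA polymerase I, was higher (log2 1.08, SE 0.12), and UBTF, which activates that polymerase, was lower (log2 -0.64, SE 0.15). Of 77 mitochondrial ribosomal protein genes 43 were higher and 3 lower (55.8% and 3.9%), with a median of 0.51. Among 16 genes of the upstream control of ribosomal protein synthesis, 5 were higher, MTOR among them (log2 0.67), and 5 lower, including its inhibitor TSC2 (log2 -1.04, SE 0.16); these shares, 31.2% each, are near those of all genes.

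Leaving out FGF10 changed no ribosomal protein gene detectably. Of 79 members tested, 0 were called higher and 0 lower by edgeR, against 1.78% of all 14262 genes tested (0.582% higher, 1.2% lower). DESeq2 and limma-voom also called 0, and 12 members had an unadjusted p under 0.05. The median member changed by -0.04 and the range was -0.14 to 0.02 on the log2 scale.

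Most members were a little lower: 69 had a negative log2 change, 3 a positive one and 7 rounded to 0. In 14 members, 17.7%, every library without FGF10 lay below every LPM library, against 8.55% of all genes, and in 0 members above, against 8.09%. RPL31, a large subunit protein, had the smallest adjusted p, 0.183 by edgeR, at 681, 690 and 655 CPM without FGF10 and 731, 762 and 699 CPM in LPM. Its groups did not overlap, but the difference was only 1.08-fold.

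The intervals were narrow. Over all tested members, the approximate 95% interval of the log2 change lay between -0.24 (RPL22L1, lower end) and 0.11 (RPL35A, upper end). That of RPLP0 was -0.11 to 0.05 and that of RPS6 -0.13 to 0.03. RPLP0 stood at 2630, 2740 and 2590 CPM without FGF10 and 2720, 2760 and 2650 CPM in LPM.

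No member left the common shift without FGF10. The counts above and below were 0 of 79 each by edgeR and by limma-voom, 0 members had an unadjusted p under 0.05, and the smallest adjusted p was 0.532 (RPL22L1, edgeR); of all genes 1.08% were called above and 0.778% below. Of the partner lists, the TOP genes (23), factors (29), control genes (16) and mitochondrial ribosomal proteins (77) had 0 called members by edgeR. Among the 50 assembly genes 1 was called, EIF6, which keeps the subunits apart until the large one is mature, at 180 ± 2.38 CPM without FGF10 and 199 ± 5.63 CPM in LPM (SD, n = 3 each, log2 -0.15, adjusted p = 0.0412 by edgeR).

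In CQ the median ribosomal protein gene changed about as much as the median of all genes, and members were called in both directions. Of 81 members tested, 9 were called higher and 20 lower, 11.1% and 24.7%, against 23.1% and 24.8% of all 13827 genes tested, and 52 were not called (47.9% of all genes were called in either direction). The median log2 change was -0.06, against -0.07 over all genes. In 11 members every CQ library lay above every LPM library and in 22 below, 13.6% and 27.2%, against 28.2% and 32.9% of all genes (61.1% in either direction). The shares called lower and not overlapping are thus near or under the background. Single core genes ranged from -1.33 (RPL35A) to 0.66 (RPL28).

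The counts called rest strongly on LPM replicate 3, whose median member lay 0.28 above the LPM mean on the log2 scale, where LPM replicates 1 and 2 lay at -0.22 and -0.08. Without it 31 members were called higher and 21 lower, with a median of 0.09. The number higher was 5 without CQ replicate 1 and 4 without CQ replicate 3, LPM replicate 1 or LPM replicate 2. CQ libraries also had fewer detected genes, 14014 to 16005 against 17489 to 17920 in LPM. Their endothelial markers summed to 0.942 to 1.53 CPM, against 12 to 17.4 CPM in LPM, their immune markers to 25.2 to 31.2 CPM, against 53.8 to 64.3 CPM in LPM, and their basal epithelial markers to 2390 to 2640 CPM, against 2750 to 2880 CPM in LPM. The taste markers summed to 2080 to 2190 CPM in CQ and 1240 to 1570 CPM in LPM, although GNAT3, 1 of these 7, was at 0 in CQ. Of the 5 taste markers tested, 1 was called higher and 1 lower, with a median log2 change of 0.04 and a range of -4.51 to 0.69. Among 3 immune markers tested 1 was called higher and 2 lower. The 2 endothelial markers tested were called lower, and so were 2 of 3 basal epithelial markers. In each of these sums the groups did not overlap. The part of these differences in the results was not tested.

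Departures from the common shift were less tied to that library: 19 members were above and 22 below, and 21 and 24 without LPM replicate 3. These are 23.5% and 27.2% of members, against 18.1% and 19.5% of all genes in the same scaling, so the shares themselves are near the background. Of the members, 62 stayed within 0.5 log2 of the shift. The number above was 12 without CQ replicate 3 and 10 without LPM replicate 2. Large subunit genes were 7 of those above and 14 of those below, and small subunit genes 9 and 8.

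RPL35A lay farthest below. It stood at 695, 558 and 605 CPM in CQ and 1240, 1510 and 1920 CPM in LPM, 2.51-fold lower (log2 -1.33, SE 0.16, adjusted p = 0.00018) and -1.26 from the shift (SE 0.10, adjusted p = 2.52e-05 by edgeR). RPS16 stood at 1380, 1210 and 1170 CPM in CQ and 2000, 2370 and 3230 CPM in LPM, -0.94 from the shift. RPL14, a large subunit protein, stood at 1530, 1410 and 1450 CPM in CQ and 2500, 2900 and 3270 CPM in LPM, -0.93 from the shift. In these 3 genes no CQ library reached the lowest LPM library.

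RPL9, whose counts are shared in part with KLB, fell 1.90-fold and departed by -0.87, and RPL34 fell 1.89-fold and departed by -0.85. RPS27A, which is made as a fusion with ubiquitin, averaged 1340 ± 11.1 CPM in CQ and 2240 ± 481 CPM in LPM (SD, n = 3 each) and departed by -0.68, as did RPL17. RPL5 fell 1.40-fold (log2 -0.49, SE 0.10, adjusted p = 0.00403), whereas its partner in the 5S particle, RPL11, was not called (log2 -0.28, SE 0.13, adjusted p = 0.11 by edgeR). The difference between both genes was not tested.

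Among those above the shift were RPL28, RPS2, RPL7L1, RPL37 and RPL29. RPL28, a large subunit protein, stood at 1660, 1440 and 1610 CPM in CQ and 848, 916 and 1220 CPM in LPM, 1.58-fold higher (log2 0.66, SE 0.14, adjusted p = 0.00393) and 0.73 above the shift (SE 0.09, adjusted p = 0.000295 by edgeR). RPS2, a small subunit protein, stood at 4510, 3730 and 3830 CPM in CQ and 2310, 2400 and 3130 CPM in LPM, 0.68 above the shift. The lowest CQ library exceeded the highest LPM library in both genes.

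RPL7L1 departed by 0.58, a call that was lost without CQ replicate 1, without CQ replicate 3 and without LPM replicate 2 (adjusted p = 0.076, 0.117 and 0.161 by edgeR). RPLP0 stood at 5320, 5090 and 5050 CPM in CQ and 3800, 4030 and 4880 CPM in LPM, 1.22-fold higher (log2 0.28, SE 0.10, adjusted p = 0.0468) and 0.34 above the shift (SE 0.06, adjusted p = 0.00323 by edgeR). The groups did not overlap, but the call of its rise was lost when any of 5 libraries was left out. These were each but LPM replicate 3, with adjusted p up to 0.183. Of the other stalk genes, RPLP1 also lay above the shift, by 0.38 (SE 0.08, adjusted p = 0.00539 by edgeR).

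Members that did not leave the shift in CQ include RPS4X (2950 ± 55 CPM in CQ and 2850 ± 283 CPM in LPM), RPSA, RPL36A, RPL11, RPLP2, RPS27L, RPL26L1 and RPL22L1. Of these, RPSA was called above it with limma-voom, with scaling to the summed ribosomal protein counts and without LPM replicate 1 (adjusted p = 0.0438, 0.0107 and 0.038). Without LPM replicate 3, RPL36A was called above it and RPL11 below it (adjusted p = 0.0232 and 0.0293 by edgeR). RPL22L1 averaged 200 ± 19.2 CPM in CQ and 263 ± 64.1 CPM in LPM, and its change was called with DESeq2 (adjusted p = 0.0326), with no filter (adjusted p = 0.0488) and without LPM replicate 1 (log2 -0.54, adjusted p = 0.0329 by edgeR). RPL3L had 38 counts in CQ and 24 in LPM and was not called.

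**Figure D3:**
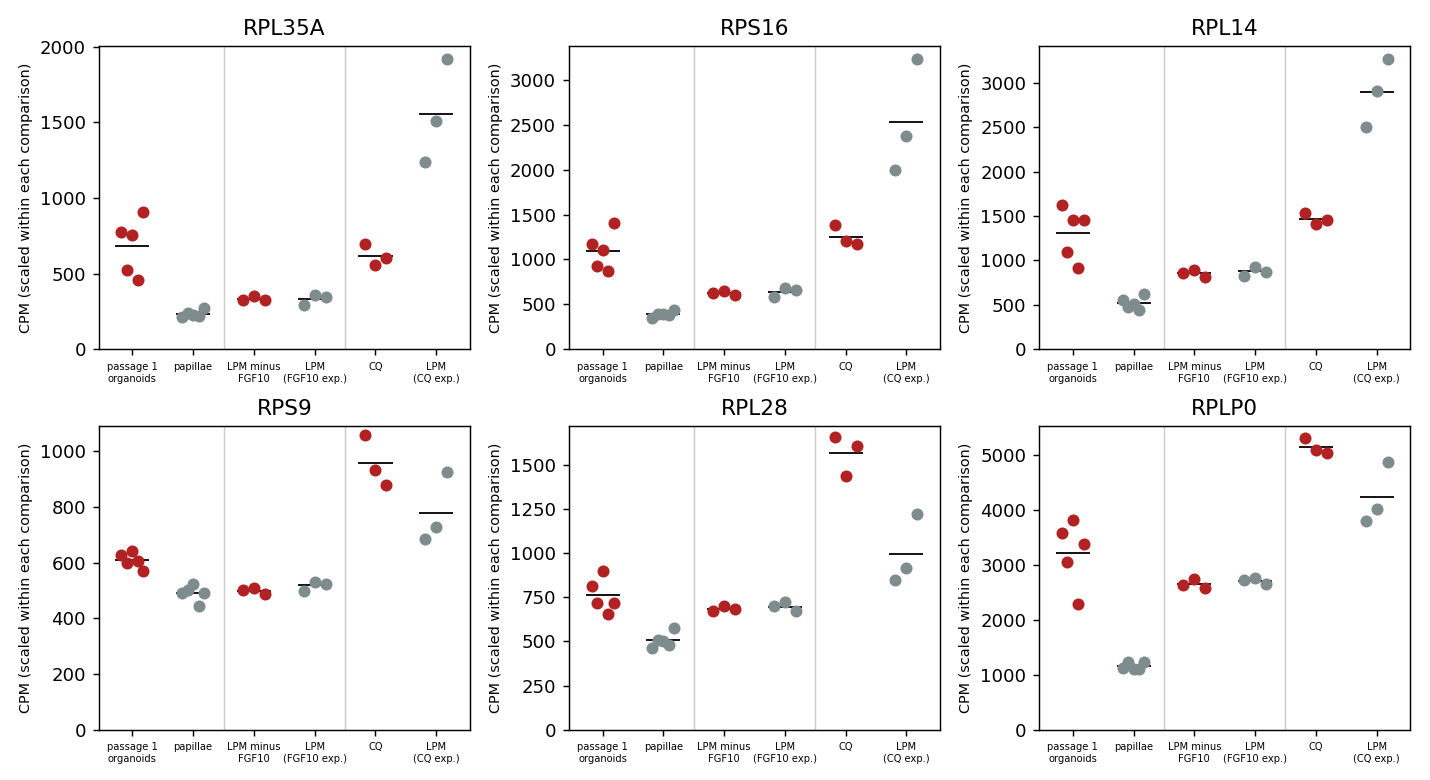
CPM per library (vertical axis from 0, scaled within each of 3 comparisons) of 6 ribosomal protein genes in 6 groups; points are libraries and lines group means. RPL35A, RPS16 and RPL14 are high in passage 1 organoids over papillae and low in CQ against LPM, RPS9 and RPL28 differ less between organoids and papillae, RPL28 lies higher in CQ while the CQ and LPM values of RPS9 overlap, and RPLP0 is higher in both comparisons.

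Genes that work with the ribosome gave other counts in CQ from list to list, and differences between lists were not tested. Of 50 assembly genes 27 were called higher and 4 lower (54% and 8%, against 23.1% and 24.8% of all genes), with a median log2 change of 0.45 against -0.07 over all genes. NOP56, a core protein of small nucleolar ribonucleoproteins, rose 2.30-fold (log2 1.20, SE 0.13, adjusted p = 8.86e-05 by edgeR), and DKC1, the pseudouridine synthase of the nucleolus, 2.07-fold. SBDS, which releases EIF6 from the large subunit, fell 1.94-fold. Of 16 control genes 11 were higher and 0 lower, with a median of 0.52. LARP4 (log2 1.04), which binds poly(A) tails, and the transcription factor YY1 (log2 0.66) were among them.

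Of the 23 other genes on the TOP list 7 were higher and 3 lower (30.4% and 13%), with a median of 0.12. Over all genes 23.1% were higher and 24.8% lower. EEF2, which moves the ribosome along the mRNA, averaged 6730 ± 369 CPM in CQ and 3930 ± 329 CPM in LPM, while EIF4A2, a helicase of initiation, averaged 489 ± 18.9 CPM in CQ and 1110 ± 75.7 CPM in LPM (SD, n = 3 each). Of the 29 factors not on the TOP list 15 were higher and 2 lower (51.7% and 6.9%), with a median of 0.31. EIF3B was the one with the smallest p (log2 1.17, SE 0.09, adjusted p = 1.67e-05 by edgeR). Of 77 mitochondrial ribosomal protein genes 17 were higher and 14 lower, 22.1% and 18.2%, which is near or under the shares of all genes, with a median of 0.01.

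The members that left the shift in organoids and those that left it in CQ overlapped, mostly in opposite directions; these comparisons share no library. Of the 12 above in organoids, 7 were below in CQ (58.3% of the 12 and 31.8% of the 22 below in CQ), namely RPL5, RPL9, RPL14, RPL17, RPL32, RPL35A and RPS16, and 1, RPLP0, was above in both. Of the 14 below in organoids, 9 were above in CQ (64.3% of the 14 and 47.4% of the 19 above in CQ), RPL3, RPL28, RPL29, RPL37, RPL7L1, RPS9 and RPS12 among them. None, 0, was below in both. Of all members tested, 27.2% were below and 23.5% above in CQ, and 15% were above and 17.5% below in organoids. Whether the overlaps exceed these shares by more than chance was not tested.

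The calls behind this vary with the libraries. With the pig as a block, 5 of the 7 and 6 of the 9 were still called in organoids. Over all alternatives, 5 to 7 of the 7 and 3 to 9 of the 9 were called in organoids. In CQ, 7 of 7 and 4 to 9 of 9 were called. Of these genes 0 was called in the other direction. The genes were chosen by their calls in these same libraries, so this 0 is no separate check of the opposite directions.

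**Figure D4:**
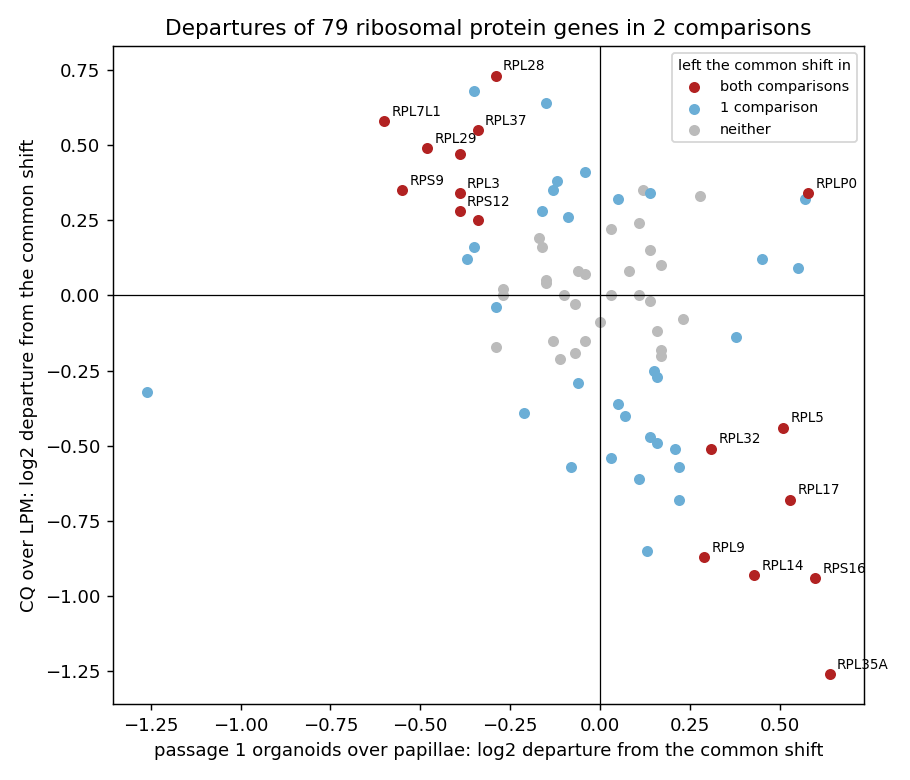
Log2 departure from the common shift of 79 ribosomal protein genes (RPL3L left out) in passage 1 organoids over papillae (horizontal axis) and in CQ over LPM (vertical axis); red points left the shift in both comparisons, blue in 1, grey in neither. Of the red points, some of which carry a name, 9 lie at upper left, 7 at lower right and RPLP0 at upper right.

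Across 79 members without RPL3L the departures in both comparisons correlated at Pearson's r = -0.46 and Spearman's rho = -0.50. Within the 41 large subunit genes r was -0.70 and rho -0.65, and within the 31 small subunit genes -0.54 and -0.51. The signs were opposite in 50 members and equal in 24, and 5 had a departure of 0 in one comparison. These are correlations across genes, which are not independent replicates and are counted in the same libraries, so no p is given. Departures showed little relation to counted length (r = -0.11 in organoids and 0.09 in CQ), and that in CQ had r = -0.39 with the log2 level in LPM. The same LPM libraries enter both of these values, so noise in them alone can make r negative. The departure in organoids had r = -0.01 with the log2 level in papillae.

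The same genes can be read in each library as 1 number, the mean log2 CPM of 11 core genes above the organoid shift minus that of 11 core genes below it, with paralogs left out. The genes were chosen from organoids and papillae, so the difference there, 0.57 to 1.05 in passage 1 organoids and -0.14 to -0.03 in papillae, only describes the choice. In the libraries not used for the choice it was 0.37 to 0.42 without FGF10 and 0.33 to 0.40 in LPM, and 0.40 to 0.46 in CQ and 1.18 to 1.29 in the LPM libraries beside it. The FGF10 arms overlapped and the CQ arms did not. The CQ values lie beside those of the FGF10 experiment, although the ribosomal protein share in CQ was higher than in any library of that experiment. Each of the 6 FGF10 libraries had a lower value than any passage 1 organoid library, although LPM is named for both.

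**Figure D5:**
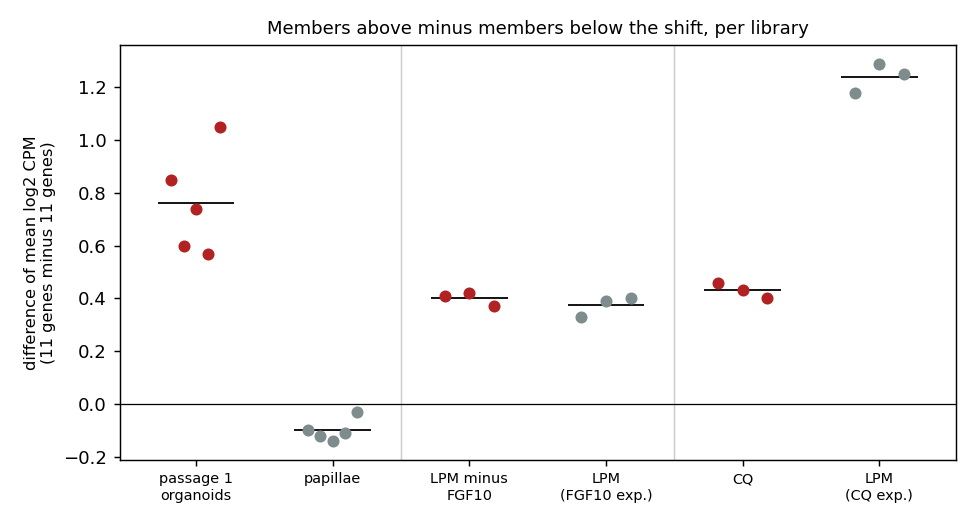
Mean log2 CPM of 11 core genes above the organoid shift minus that of 11 core genes below it (vertical axis, log2) in each of 22 libraries; points are libraries and lines group means. Papillae lie at -0.14 to -0.03, CQ at 0.40 to 0.46 and the LPM libraries of the CQ experiment at 1.18 to 1.29.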

How the data were processed

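The deposited values are raw counts of read pairs, made by the authors with featureCounts, version 2.0.3 for 16 libraries and 2.0.6 for the CQ experiment, per the file headers. The submitters' processing notes also name STAR 2.7.10b, FastQC 0.11.9, MultiQC 1.14 and DESeq2. Per the file headers, strand was ignored, pairs over several genes counted for each, and multi-mapping pairs did not count, which lowers genes with near-identical copies. In the CQ experiment 1 unnamed entry with 0.326 to 0.477% of counts was left out.

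Each comparison was fitted on its own groups with edgeR 4.0.16 in R 4.3.3 (TMM, filterByExpr, quasi-likelihood F test, Benjamini-Hochberg over all genes), with the standard error as the log2 change over the root of F. The 22-library levels used TMM over the 26838 genes in both annotations. For the common shift, libraries were scaled to the median ratio of ribosomal protein genes. Alternatives were DESeq2 1.42.0, limma 3.58.1 voom, other scalings, no filter, a replicate block and each library left out. Data were also simulated with the same spread between libraries (dispersion) for every gene, a value not estimated from these libraries. There, 2-fold changes were recovered for 100% of genes in the organoid comparison (16617 genes) and 91.5% in CQ (14037 genes). For 1.5-fold changes the shares were 47.8% and 20.0%.

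Replicate numbers of organoids and papillae mark the same pigs per the labels; deviations of same-numbered libraries correlated at 0.04 to 0.11. Replicates differed beyond counting noise (chi-square over degrees of freedom 2.56 to 285). The labels call the libraries of the FGF10 experiment biological replicates and those of the CQ experiment samples. That replicates came from separate cultures is not stated for either media experiment. There, p-values measure the spread between libraries. Members, gene lists and the rule for named genes (a fixed set, the 3 highest per kilobase, up to 6 farthest from the shift per direction and up to 2 per list and direction by p) were chosen with earlier results of these data known; members outside it, RPL31 included, are named by their calls or p after the values were seen. A few members that this rule would name are not reported here. Sequences were not used here.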

Additional observations from a re-analysis of the deposited data

Results flagged for a closer look

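Within groups of 5 libraries, 22 named members and the ribosomal protein share of counts gave 46 sets of values to look at. Of such sets chance would single out about 1 in 20, and 4 had a library far from the rest. RPL22L1 stood at 119 CPM in the organoids of pig 4, with the other organoids at 35.6 to 59.4 CPM. RPS4X stood at 1230 CPM in the same organoids and at 1410 to 1480 CPM in the others. RPL17 stood at 677 CPM in papilla 5, with the other papillae at 498 to 543 CPM. RPL3L stood at 27.8 CPM in papilla 3, the papilla with the highest muscle signal, and at 2.31 to 7.91 CPM in the other papillae.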

How the results depend on the processing

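In organoids against papillae the direction of the members' shift held under every alternative run, with 74 to 78 called higher and a median log2 change of 0.83 to 1.18; the value of 1.18 came with library size alone, where the median of all genes was 0.28. Members called lower numbered 1 to 2 with a library left out. Members below the common shift numbered 9 with no filter and 9 with the replicate block, and 6 to 13 with a library left out, where RPL36A lay at -0.02 to 0.08 against the shift. Without FGF10, 0 members were called under every alternative, the replicate block included, and values near 0 changed sign: RPL5 and RPL11 were at 0 with library size alone, and with a library left out RPL5 and RPL11 ranged from -0.04 to 0.01, RPL34 from -0.01 to 0.06 and RPL35A from -0.07 to 0.07. Against the shift RPS27L ranged from -0.1 to 0.04, RPL26L1 from -0.12 to 0.01 and RPL35A from -0.01 to 0.09, RPS4X and RPS6 from -0.03 to 0.01, and RPL36A and RPLP0 crossed 0 by at most 0.01. In CQ, members called higher numbered 16 with library size alone and 4 to 31 with a library left out, those called lower 14 to 28, those above the shift 10 to 21 and those below it 19 to 24. RPS4X was at -0.02 with no filter and at -0.02 to 0.12, and RPL36A at -0.05 to 0.4, with a library left out. Replicate numbers of the media experiments share only a number (correlations of -0.05 to 0.05 for FGF10 and -0.01 to 0.02 for CQ); with the replicate block CQ had 8 members called higher, 19 lower, 13 above the shift and 20 below. The cause of these changes was not tested. In the simulated data, which had the same dispersion for every gene, 1.5-fold changes were recovered for 21.2% of genes without FGF10 and 20.0% in CQ. Smaller changes were called in the real data, such as EIF6 at 1.11-fold without FGF10 and RPLP0 at 1.22-fold in CQ. The simulated shares therefore do not give the limit of detection for the members.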
